A study of Mus musculus with 12 samples.

Results

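Gdap1-null mouse embryonic fibroblasts were compared with wild-type mouse embryonic fibroblasts at day 0, before reprogramming. The comparison rests on the 6 arrays titled for day 0, 3 from Gdap1-null cells (KO) and 3 from wild-type cells (WT), out of 12 arrays in the series, and they were chosen by title and not by any measured value. The other 6 arrays hold the same genotypes at day 4 of reprogramming with OSKM (Oct4, Sox2, Klf4 and c-Myc), 3 per genotype, and they serve here for the estimate of each gene's spread and for a comparison between days. Embryonic fibroblasts are connective-tissue cells grown out of embryos, and all groups were kept in DMEM with fetal bovine serum. Their total RNA was labelled from the whole transcript and hybridised to 1-colour Affymetrix arrays. A treatment label common to every array mentions a mock or an OSKM transduction followed by further culture, and does not tell which of them, if any, the day 0 cells received. The labels name no strain, sex or embryonic age, no construction of the null allele, and no separate cultures, embryos or batches behind the arrays of a group. The p-values therefore measure only the spread between these samples, which may be technical, and batch and genotype cannot be told apart.

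GDAP1 sits in the outer membrane of mitochondria and acts in their fission, and inherited mutations in it cause a peripheral neuropathy. Cells that detect viral or misplaced nucleic acid secrete type I interferons, whose receptor works through JAK kinases and a complex holding STAT2 and IRF9 that binds the interferon-stimulated response element, a short DNA motif in the promoters of antiviral genes. Fibroblasts answer interferon and inflammatory signals with chemokines and matrix-degrading proteases, and at rest they build a matrix of collagens, elastic fibres and proteoglycans. Primary fibroblast cultures can also carry macrophages over from the embryo, recognised by complement C1q, immune receptors and lysozyme.

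Levels are log2 values of probe sets, and of several probe sets of a gene the one brightest on average across all 12 arrays was kept, for 22180 genes in all. The median level over genes lay between 5.22 and 5.26 on the 6 day 0 arrays, and genes had a median SD within their group (n = 3) of 0.09 in both day 0 groups, 0.13 in WT cells at day 4 and 0.12 in KO cells at day 4. The Gdap1 probe set lay at the 14.1 percentile of levels, near the floor of the arrays, and checks nothing about the genotype: its KO minus WT difference was -0.08 ± 0.12 (SE, n = 3 per group, limma adjusted p = 0.831). Of 20 fibroblast markers 19 were measured, and none lay under the 25th percentile of levels. Their summed linear level ranged from 33056.4 to 33470.1 in WT and from 32160.6 to 33003.6 in KO arrays, so both groups carried the markers of their label. Differences below are KO minus WT on the log2 scale with the standard error of the limma model and 3 arrays per group, and a gene rose or fell where its Benjamini-Hochberg adjusted p over all genes was under 0.05.

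At day 0 most measured genes of the interferon response list and some chemokines and matrix metalloproteinases were higher in KO cells, and most macrophage markers and some genes of the elastic and collagenous matrix were lower. In all 549 genes rose (2.48% of those tested) and 693 fell (3.12%), and 145 of the rises and 128 of the falls were at least 2-fold. The counts of risen and fallen list members below stand against these shares, 2.48% and 3.12% of all genes. The largest changes pointed up: 49 rises but 12 falls reached 4-fold. The median called rise was 0.63, the median called fall -0.61, and the median over all genes -0.00. The 3 KO arrays all lay above the 3 WT arrays in 13.1% of all genes and all below in 16.4%. The spread of each gene is estimated from all 12 arrays, and the count of calls moved with single arrays: without any 1 of the 6 day 0 arrays 769 to 826 genes passed, and without WT day 4 array 1, 1936 did. A fit to the 6 day 0 arrays alone called 2453 genes, 1144 higher and 1309 lower, among them 1235 of the 1242.

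**Figure D1:**
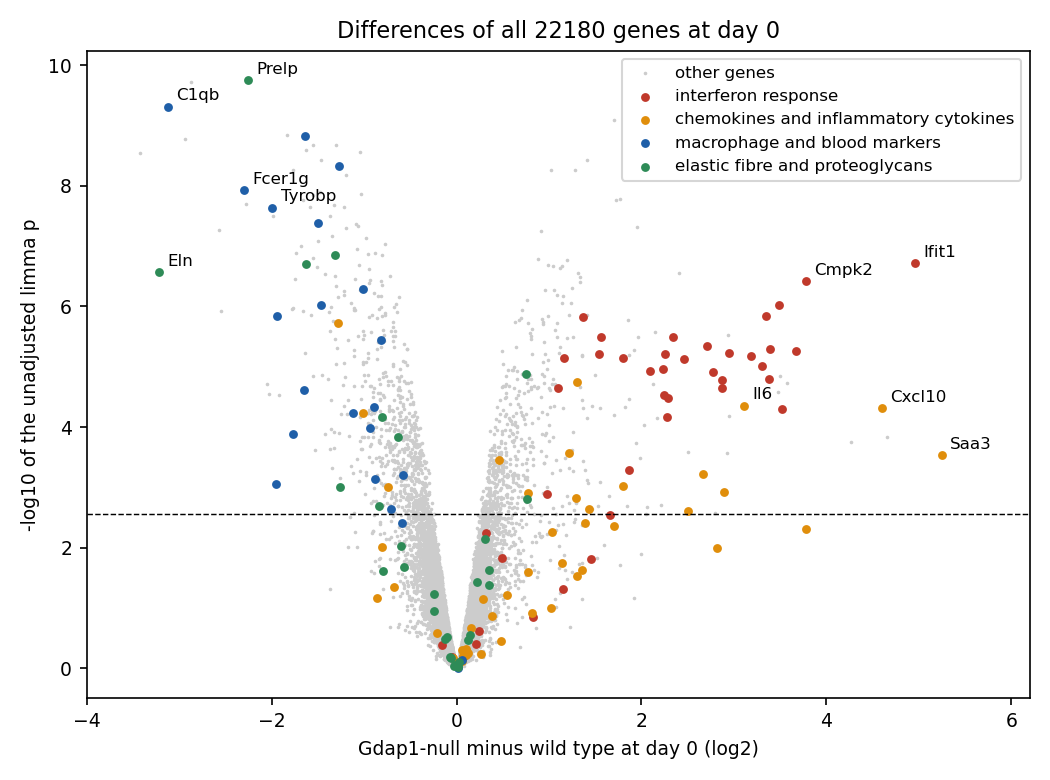
Each point is a gene, with the KO minus WT difference at day 0 (log2) on the horizontal axis and -log10 of its unadjusted limma p on the vertical axis, and the dashed line marks the largest unadjusted p that passed the adjusted threshold of 0.05. Colours mark 4 of the gene lists: Ifit1 (4.96) and Saa3 (5.25) lie farthest to the right, and C1qb (-3.12) and Eln (-3.22) lie to the left.

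Promoter sequences were searched for short motifs, among them the interferon-stimulated response element and the kappaB element bound by NF-kappaB. Promoter windows from 250 bases before to 50 bases after a gene's start were taken from RefSeq, build GRCm38.p6, and 16990 of the tested genes had one. The interferon-stimulated response element was searched as GAAA, any 2 bases, GAAA, and the kappaB element as GGGA, any 1 base, TTTCC, on both strands, with overlapping matches of a motif allowed and neither motif containing the other. The kappaB element was added after the gene results had been seen. The other 10 motifs searched likewise were the E-box (CACGTG), the TEAD element (CATTCC), the AP-1 element (TGANTCA), the CCAAT box (CCAAT), the TATA box (TATAAA), the cell cycle homology region (TTTGAA), the antioxidant response element core (TGAC, any 3 bases, GC), the E2F element (TTT, any 1 base, GCGC), the amino acid response element (TGATG, any 1 base, AA, any 1 base) and the cyclic AMP response element (TGAC directly followed by GTCA). The first was found in 657 of the 16990 genes (3.87%), in 45 of 416 genes that rose (10.8%) and in 14 of 525 that fell (2.67%). Of the 30 interferon-response genes with a window 17 held it (56.7%), and of the 22 among them that rose 12 did (54.5%). The kappaB element was found in 85 of the 16990 genes (0.5%), in 6 of the 34 chemokine and cytokine genes with a window (17.6%) and in 3 of the 10 that rose (30%). In the same 34 windows the TATA box was found in 16 (47.1%, against 14.3% of all genes) and the AP-1 element in 10 (29.4%, against 8.42%), and of the 10 genes that rose 3 held the TATA box and 6 the AP-1 element (60%). The AP-1 element was in 7 of the 30 interferon-response windows (23.3%). A match is a run of letters, not a measured binding site. The 6 interferon-response promoters and 3 chemokine promoters below are examples, picked after the values were seen, of genes that rose and hold a match upstream of the start. Igtp, Irgm2, Gbp3, Ddx60, Irgm1 and, for kappaB, Il6 also held one and are not printed. Capitals mark the match, read on either strand, and each sequence runs 5′ to 3′ along its gene's strand.
Ifit1: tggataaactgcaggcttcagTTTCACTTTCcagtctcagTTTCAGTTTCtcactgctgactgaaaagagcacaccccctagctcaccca
Isg15: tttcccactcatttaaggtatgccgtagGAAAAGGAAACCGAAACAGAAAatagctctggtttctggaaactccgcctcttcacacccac
Rsad2: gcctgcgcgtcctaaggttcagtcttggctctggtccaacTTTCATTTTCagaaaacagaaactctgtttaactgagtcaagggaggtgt
Gbp7: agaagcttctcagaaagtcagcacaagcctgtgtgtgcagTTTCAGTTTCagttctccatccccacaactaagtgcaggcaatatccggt
Stat2: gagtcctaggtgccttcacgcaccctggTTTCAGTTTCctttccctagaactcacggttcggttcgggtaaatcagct
Bst2: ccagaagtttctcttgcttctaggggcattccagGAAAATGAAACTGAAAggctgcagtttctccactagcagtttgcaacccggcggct
Cxcl10: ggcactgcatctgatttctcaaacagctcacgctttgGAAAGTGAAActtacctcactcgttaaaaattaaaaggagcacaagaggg
Cxcl1: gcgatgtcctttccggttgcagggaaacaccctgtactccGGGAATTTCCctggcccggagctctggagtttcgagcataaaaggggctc
Cxcl3: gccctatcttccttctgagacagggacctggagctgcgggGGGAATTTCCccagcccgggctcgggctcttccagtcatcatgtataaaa
These stretches lie at chr19:34640764-34640853, plus strand (Ifit1), chr4:156200835-156200924, minus strand (Isg15), chr12:26456523-26456612, minus strand (Rsad2), chr3:142530243-142530332, plus strand (Gbp7), chr10:128270248-128270325, plus strand (Stat2), chr8:71537547-71537636, minus strand (Bst2), chr5:92349053-92349139, minus strand (Cxcl10), chr5:90891134-90891223, plus strand (Cxcl1) and chr5:90785988-90786077, plus strand (Cxcl3). Ifit1 and Bst2 each held 2 matches in their windows, and Isg15 held 3 that overlap in 1 run. The window of Cxcl10 held no kappaB match, nor did those of Saa3, Cxcl9, Ccl20, Ppbp, Lif and Il11. The windows of Cmpk2, Oasl2, Oasl1, Irf7, Xaf1, Irf9, Ifit2, Ifi35, Trim25 and Lgals3bp held no match to the first motif.

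Interferon-response genes were higher in KO cells through most of the list. Of 42 measured genes of this list 31 rose (73.8%, against 2.48% of all genes) and none fell. The list's median difference was 2.24. Its members, like those of the other lists, were chosen with earlier results of these data known. The KO arrays lay above all WT arrays in 38 of the 42, against 13.1% of all genes. After each gene was centred on its mean of 12 arrays, the average over the list was between -1.37 and -1.33 in the WT day 0 arrays and between 0.68 and 0.73 in the KO day 0 arrays. The count was 29 to 30 without any 1 day 0 array, and 37 both without WT day 4 array 1 and in the fit to the 6 day 0 arrays. On the same arrays the summed linear level of macrophage markers ran the other way, from 2497.1 to 2664.8 in WT and from 829.4 to 875.8 in KO, and the part of those cells in the rises was not tested.

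Among the effectors that block viral RNA and protein, Ifit1, which binds viral RNA lacking the host cap, gave levels of 4.93, 5.27 and 5.28 in the WT arrays and 10.22, 10.02 and 10.11 in the KO arrays. The groups lay far apart with little spread, and the difference was 4.96 ± 0.49, or 31.1-fold (adjusted p = 7.38e-05). Ifit2 of the same family rose by 1.37 ± 0.16, whereas Ifit3 differed by 0.07 ± 0.15 and did not pass (adjusted p = 0.887). Cmpk2, a mitochondrial nucleotide kinase induced by interferon, gave 4.85, 5.06 and 4.80 in the WT arrays and 8.66, 8.78 and 8.61 in the KO arrays. Its groups did not overlap, and it rose 13.8-fold (3.78 ± 0.39, adjusted p = 0.000109). Rsad2, which encodes viperin and lies next to Cmpk2, gave 5.22, 5.18 and 5.19 in the WT arrays and 8.05, 8.03 and 8.13 in the KO arrays, again without overlap, and rose by 2.87 ± 0.43. The 2'-5' oligoadenylate synthetase family, whose enzymes switch on RNase L, split: Oasl2 (3.48), Oas1b (3.40) and Oasl1 (2.95) rose, and Oas1g (1.45), Oas2 (0.82) and Oas3 (0.24) did not pass. The dynamin-like Mx2 rose by 3.19 ± 0.43, and Mx1 stood at 1.66 ± 0.45 (adjusted p = 0.0501). Eif2ak2, which encodes the protein kinase PKR, rose by 1.56 ± 0.20, and Bst2, whose product tethers virions to the cell, by 1.87 ± 0.40. The membrane proteins Ifitm1 (0.21) and Ifitm3 (0.32) did not pass. Near-identical copies in the Oas, Mx, Gbp, Irg and Ifi200 families can share probes, so the split among their members is uncertain, and Oas1b and Mx2 are annotated in RefSeq as transcribed pseudogenes.

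The immunity-related GTPases and guanylate-binding proteins, which attack the vacuoles of intracellular parasites, rose in part. Iigp1 gave 4.32, 4.19 and 4.20 in the WT arrays and 7.65, 7.90 and 7.73 in the KO arrays and rose 11.5-fold (3.52 ± 0.58, adjusted p = 0.00292), with all 3 KO arrays above the WT arrays. Igtp rose by 3.30 ± 0.47, Irgm2 by 2.93 ± 0.37 and Irgm1 by 2.09 ± 0.30. Among guanylate-binding proteins Gbp3 rose by 2.77 ± 0.40 and Gbp7 by 2.71 ± 0.35, and Gbp5 stood at 1.15 ± 0.52 (adjusted p = 0.292). Rtp4, a receptor transporter gene, and Zbp1, a sensor of left-handed nucleic acid that can trigger necroptosis, rose by 3.34 ± 0.39 and 2.87 ± 0.44.

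Several signalling and feedback genes of the pathway rose. Irf7, the transcription factor that amplifies type I interferon genes, gave 5.48, 5.55 and 5.29 in the WT arrays and 8.86, 8.85 and 8.75 in the KO arrays, and its difference of 3.38 ± 0.50 (10.4-fold, adjusted p = 0.00136) left the groups apart. Stat2 rose by 2.23 ± 0.32 and Irf9 by 1.54 ± 0.21, both subunits of the complex that binds the motif shown in capitals above, while Irf1 was at 0.50 ± 0.18 and did not pass (adjusted p = 0.15). Isg15, a ubiquitin-like protein that is linked to other proteins, rose by 2.29 ± 0.36. Usp18, the protease that removes ISG15 and dampens the receptor, gave 6.72, 6.90 and 6.83 in the WT arrays and 10.50, 10.50 and 10.46 in the KO arrays and rose 12.7-fold (3.67 ± 0.49, adjusted p = 0.000628). Its groups lay apart. Socs1, a second brake on JAK kinases, rose by 0.58 ± 0.14. Most ligands did not pass: in a list of interferon ligands and receptors assembled after results had been seen, 2 of 28 rose and none fell, namely Socs1 and Ifna4 (0.94 ± 0.13, adjusted p = 0.000862). Ifnb1 was at -0.07 ± 0.08 (adjusted p = 0.76). The calls were 1 of 28 without any 1 day 0 array and 6 without WT day 4 array 1.

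Some sensors of nucleic acid rose. In a list of 18 genes, also assembled after results had been seen, 6 rose (33.3%, against 2.48% of all genes) and 1 fell (5.56%, against 3.12%). The rises numbered 4 without any 1 day 0 array. Ifih1, which encodes the long double-stranded RNA sensor MDA5, rose by 2.25 ± 0.30, Dhx58 (LGP2), its regulator, by 2.25 ± 0.35, and Ddx58, which encodes RIG-I, by 1.47 ± 0.24, of which Ifih1 and Dhx58 belong to the interferon list. Tlr3, the endosomal receptor of double-stranded RNA, rose by 1.41 ± 0.32, and Adar, which edits double-stranded RNA and keeps it from being sensed, by 1.03 ± 0.15. In the DNA-binding Ifi200 family Ifi205 gave 5.09, 4.87 and 4.98 in the WT arrays and 8.42, 8.73 and 8.52 in the KO arrays and rose 11.9-fold (3.57 ± 0.54), without overlap, Ifi204 rose by 2.95 ± 0.50 and Mndal by 1.29 ± 0.33. The DNA sensor Cgas (-0.06 ± 0.14), its partner Sting1 (0.15 ± 0.17), the RNA-sensing adaptor Mavs (-0.22 ± 0.09), which sits on mitochondria, and the kinase Tbk1 (-0.01 ± 0.09) did not pass. Tlr7 fell by 1.03 in log2 units (adjusted p = 0.00849).

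Antigen presentation on MHC class I, another interferon target, showed 2 rises among 19 measured genes (10.5%) and no fall. They were Tap1 (1.17 ± 0.24, adjusted p = 0.011), a peptide transporter of the endoplasmic reticulum, and Nlrc5 (0.74 ± 0.17, adjusted p = 0.0187), the transactivator of class I genes. For 14 of the 19 the KO arrays lay above all WT arrays, against 13.1% of all genes. The rises numbered as few as 0 without single day 0 arrays, 9 without WT day 4 array 1 and 13 in the fit to the 6 day 0 arrays. H2-Q4, a non-classical class I gene, gave 6.05, 5.90 and 5.49 in the WT arrays and 7.17, 7.37 and 6.96 in the KO arrays and did not overlap, with a difference of 1.35 ± 0.39 that did not pass (adjusted p = 0.0666, and 0.000562 without WT day 4 array 1).

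**Figure D2:**
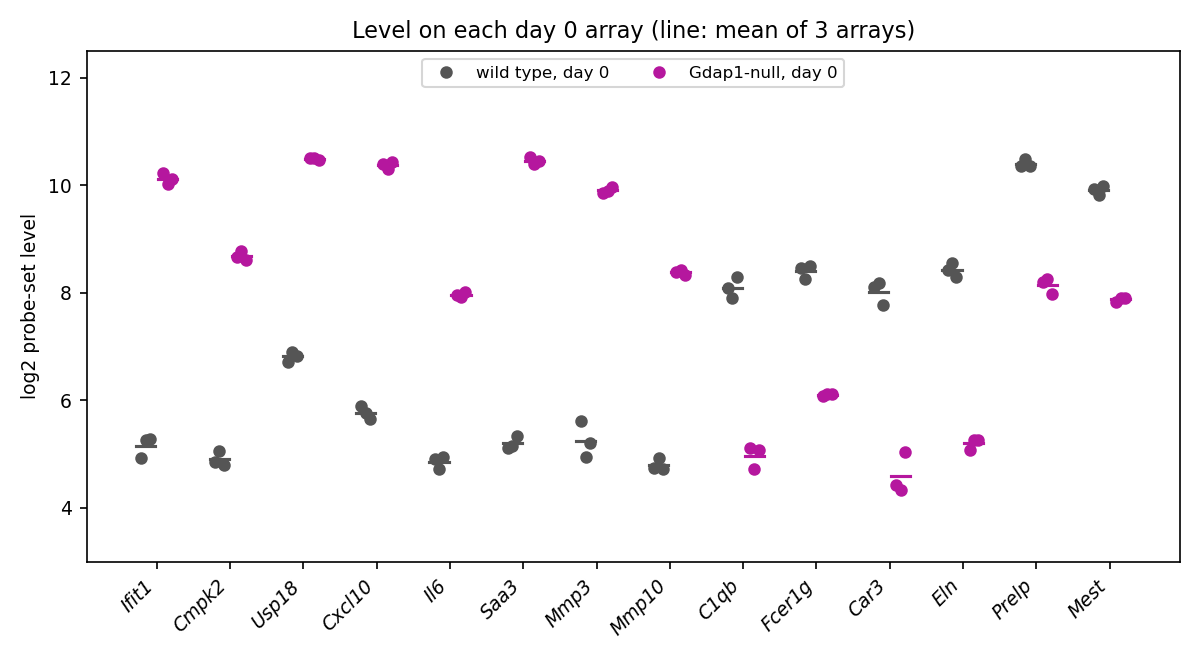
Log2 probe-set level (vertical axis) of 14 genes on each of the 3 WT and 3 KO day 0 arrays (points), with the group mean as a line, and levels compared within a gene only. In the 8 genes from Ifit1 to Mmp10 every KO array lies above every WT array, and in the 6 from C1qb to Mest every KO array lies below.

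Chemokines and inflammatory cytokines rose in part. Of 44 measured genes 13 rose (29.5%) and 3 fell (6.82%), with a median difference of 0.77. Saa3, an acute-phase apolipoprotein of mouse stromal cells, gave 5.12, 5.16 and 5.34 in the WT arrays and 10.52, 10.40 and 10.45 in the KO arrays. The groups stood apart by 38-fold (5.25 ± 1.06, adjusted p = 0.0101), the largest rise among the genes named, and the call was lost with a trended and robust prior (adjusted p = 0.057). Cxcl10, an interferon-inducible chemokine for T cells, gave 5.90, 5.77 and 5.65 in the WT arrays and 10.40, 10.30 and 10.43 in the KO arrays and rose 24.3-fold (4.60 ± 0.76, adjusted p = 0.00287). Its relative Cxcl9 rose by 2.66 ± 0.59. Il6, a cytokine of the acute-phase response, gave 4.91, 4.73 and 4.94 in the WT arrays and 7.96, 7.93 and 8.01 in the KO arrays, without overlap, and rose by 3.11 ± 0.51 (adjusted p = 0.00272). The neutrophil chemokines Cxcl5 (2.89 ± 0.69), Cxcl1 (2.50 ± 0.66), Cxcl3 (1.30 ± 0.20) and Ppbp (1.22 ± 0.24) rose, and so did Ccl11, which draws eosinophils (1.80 ± 0.42), Ccl20 (1.43 ± 0.37) and Ccl7 (1.29 ± 0.32). Lif (0.77 ± 0.19) and Il11 (0.45 ± 0.09) of the interleukin 6 family rose less far. The 3 falls were Ccl17 (-1.28 ± 0.15), Cx3cl1 (-1.01 ± 0.17) and Cxcl14 (-0.74 ± 0.17). Lcn2, an iron-scavenging acute-phase gene, was at 3.78 ± 1.11 and did not pass (adjusted p = 0.0725). The count of rises in this list depended on the estimate of spread: it was 5 or 6 without any 1 day 0 array and with the trended prior 6, while it was 26 without WT day 4 array 1 and 27 in the fit to the 6 day 0 arrays. Cxcl5 lost its call without any 1 of the day 0 arrays (adjusted p up to 0.107).

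Of 17 genes for NF-kappaB subunits, their inhibitors and the receptors upstream, a list assembled after results had been seen, 2 rose and none fell. Nfkbiz, a nuclear cofactor needed for Il6 and Lcn2 transcription, rose by 1.52 ± 0.39 (adjusted p = 0.0404) and Bcl3 by 1.07 ± 0.29 (adjusted p = 0.0495), and neither call held without any 1 of the 6 day 0 arrays, while at most 1 held without any 1 KO day 4 array. The list had 4 rises without WT day 4 array 1 and 7 in the fit to the 6 day 0 arrays. The subunit genes Rela (0.11), Nfkb2 (0.17) and Relb (0.28) did not pass. In a list of acute-phase and iron-handling genes, assembled likewise, 3 of 12 rose: the metalloreductase Steap4, the ferroxidase ceruloplasmin (Cp) and Serpina3i, a protease inhibitor. Steap4 gave 4.45, 4.31 and 4.45 in the WT arrays and 8.75, 8.55 and 8.71 in the KO arrays, without overlap, and rose 19.2-fold (4.27 ± 0.81, adjusted p = 0.00717). Cp rose by 2.80 ± 0.75 and Serpina3i by 2.50 ± 0.50. Without WT day 4 array 1, 6 of the 12 passed, and without WT day 0 array 3, 1 did.

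Some matrix metalloproteinases, which cut collagens and other matrix proteins, rose, and an inhibitor of them fell. Of 28 genes of proteases and inhibitors 5 rose (17.9%) and 4 fell (14.3%). Mmp3, stromelysin 1, gave 5.61, 4.94 and 5.21 in the WT arrays and 9.86, 9.90 and 9.97 in the KO arrays. The WT arrays spread more than the KO arrays but did not reach them, and the difference was 4.66 ± 0.87 (25.2-fold, adjusted p = 0.00626). Mmp10, stromelysin 2, gave 4.74, 4.93 and 4.72 in the WT arrays and 8.39, 8.43 and 8.33 in the KO arrays, and rose 12-fold (3.58 ± 0.21, adjusted p = 2.69e-06). The collagenase Mmp13 rose by 2.92 ± 0.59 (lost with the trended prior, adjusted p = 0.0537), the elastase Mmp12 by 1.08 ± 0.22 and the gelatinase Mmp2 by 0.43 ± 0.10. Timp3, a matrix-bound inhibitor of these enzymes, fell by 0.95 on the log2 scale, and the ADAMTS protease genes Adamts12 (-0.90 ± 0.17), Adamts5 (-0.79 ± 0.12) and Adamts1 (-0.79 ± 0.19) fell. The rises numbered 3 without WT day 0 array 2 and 3 without KO day 0 array 1.

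Macrophage and blood markers were lower in KO cells almost throughout. Of 22 measured markers 19 fell (86.4%, against 3.12% of all genes), none rose, and the median difference was -1.19. In bulk RNA, fewer macrophages and less of these transcripts per cell cannot be told apart. C1qb, a chain of the complement component that macrophages secrete, gave 8.09, 7.91 and 8.29 in the WT arrays and 5.12, 4.73 and 5.07 in the KO arrays. The KO arrays all lay below the WT arrays, 8.7-fold lower (-3.12 ± 0.18, adjusted p = 2.69e-06). The signalling adaptors Fcer1g and Tyrobp fell by 2.30 and 1.99 on the log2 scale. Fcer1g gave 8.46, 8.26 and 8.49 in the WT arrays and 6.09, 6.11 and 6.11 in the KO arrays, without overlap (adjusted p = 1.25e-05). Further falls were those of Lyz2, a lysozyme (-1.94 ± 0.23), the mannose receptor Mrc1 (-1.76 ± 0.32), the scavenger receptor Msr1 (-1.65 ± 0.25), Laptm5 (-1.64 ± 0.11), the growth factor receptor Csf1r (-1.50 ± 0.13), C1qc (-1.47 ± 0.17) and Cd68 (-1.27 ± 0.09). Adgre1, which encodes F4/80, was at -1.95 ± 0.45 (adjusted p = 0.0218), and its call was lost without any 1 day 0 array and with the trended prior. Spi1, the master transcription factor of myeloid cells, fell by 0.71 on the log2 scale. Cd52 (-0.59 ± 0.17), Cd14 (0.01 ± 0.35) and Aif1 (0.06 ± 0.16) did not pass. None of the 22 lay under the 25th percentile of levels. The count was 15 to 17 without any 1 day 0 array and 20 in the fit to the day 0 arrays alone.

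Other genes of blood and immune cells stood among the 20 largest falls outside that list. Ms4a7, a membrane protein of macrophages, gave 7.26, 7.16 and 7.15 in the WT arrays and 4.43, 4.43 and 3.89 in the KO arrays, and the groups lay 7.66-fold apart (-2.94 ± 0.19, adjusted p = 4.65e-06). Lilrb4a, an inhibitory receptor (-2.55 ± 0.29), Fcrls (-2.28 ± 0.18), Tlr13 (-1.77 ± 0.13) and Lcp1, the leukocyte plastin (-1.77 ± 0.20), also fell. Of 18 complement genes 4 fell (22.2%), among them the anaphylatoxin receptors C5ar1 (-1.30 ± 0.18) and C3ar1 (-1.22 ± 0.13) and properdin, Cfp (-0.73 ± 0.19), beside Cd59a (-0.63 ± 0.10), a membrane inhibitor of complement, and C1s1, a protease of the classical pathway, rose (1.65 ± 0.41). The rise of C1s1 was lost without any 1 of the 6 day 0 arrays, and its second probe set was at 0.14. Endothelial markers, of which 4 of 20 fell (20%), were not lower as a whole: Ptprb (-1.19 ± 0.20), Emcn (-1.08 ± 0.10), Tek (-0.67 ± 0.17) and Eng (-0.65 ± 0.08) fell, and the median of the list was -0.05.

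**Figure D3:**
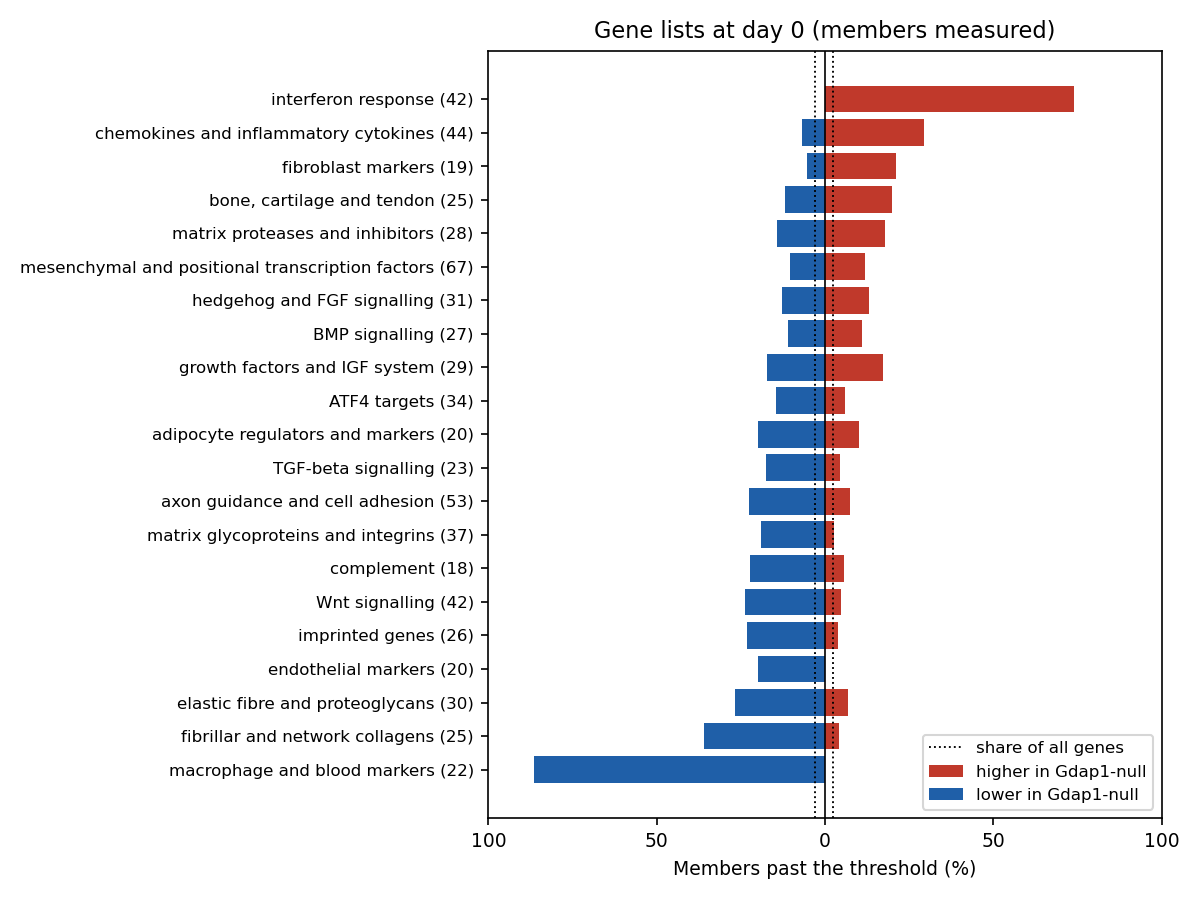
Share of measured members (in %, number of members in brackets) that rose (red, to the right) or fell (blue, to the left) at day 0. Shown are the 21 of 52 lists with at least 4 members and at least 20% past the threshold. Dotted lines mark the shares of all genes, 2.48% and 3.12%. The members of these lists were chosen with earlier results of these data known, and the lists added after the present results are left out. The interferon list (73.8% higher) and the macrophage list (86.4% lower) stand at the ends.

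Genes of the extracellular matrix were lower more often than higher. Of 30 genes of elastic fibres and proteoglycans 8 fell (26.7%) and 2 rose (6.67%). Eln, elastin itself, gave 8.43, 8.55 and 8.29 in the WT arrays and 5.08, 5.27 and 5.27 in the KO arrays, so that KO cells had 9.29-fold less (-3.22 ± 0.33, adjusted p = 9.06e-05) and the groups did not overlap. Its assembly partners fell too: the fibrillin Fbn2 (-0.81 ± 0.14), Mfap4 (-0.84 ± 0.22) and the fibulin Fbln5 (-0.64 ± 0.12). The small leucine-rich proteoglycans, which bind collagen fibrils, divided. Prelp gave 10.36, 10.49 and 10.36 in the WT arrays and 8.21, 8.25 and 7.98 in the KO arrays and fell by 2.26 in log2 units (adjusted p = 2.08e-06), but its second probe set was at 0.11. Podn (-1.63 ± 0.16), Fmod (-1.31 ± 0.13) and Aspn (-1.26 ± 0.30) fell, whereas lumican, Lum (0.77 ± 0.19), and decorin, Dcn (0.75 ± 0.11), rose. The 2 rises were 1 without any 1 day 0 array.

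Some collagen genes fell, by small amounts. Of 25 genes of fibrillar and network collagens 9 fell (36%) and 1 rose (4%), the fibrillar Col24a1 (0.74 ± 0.14). The falls were led by Col14a1 (-0.997 ± 0.19), which coats fibrils, and Col8a1 (-0.99 ± 0.24), a short-chain network collagen, and included both chains of the main basement membrane collagen, Col4a1 (-0.57 ± 0.08) and Col4a2 (-0.56 ± 0.10). The fibroblast collagens Col1a1, Col1a2 and Col3a1 did not pass. Without WT day 0 array 2 or any 1 KO day 0 array 5 collagen genes were called lower, and without WT day 4 array 1, 12 were. Of 37 genes of matrix glycoproteins and integrins 7 fell (18.9%) and 1 rose (2.7%). The collagen receptor subunit Itga1 (-1.16 ± 0.22), nidogen 2, Nid2 (-0.96 ± 0.13), the laminin receptor subunit Itga6 (-0.85 ± 0.09) and the laminin chain Lama2 (-0.74 ± 0.15) fell furthest, Lamb2 (-0.47 ± 0.08), Itga3 (-0.65 ± 0.15) and Lamc1 (-0.38 ± 0.08) by less, and Itga4, a fibronectin and VCAM1 receptor subunit, rose (0.80 ± 0.16). Without KO day 0 array 1 or array 3, 4 falls were called.

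Among the fibroblast markers used for the label check 4 rose and 1 fell. Lum and Dcn were joined by the receptor Pdgfra (0.71 ± 0.17) and the ectonucleotidase Nt5e, CD73 (0.65 ± 0.13), and the TGF-beta co-receptor Eng fell. Vim (vimentin), Thy1 and the mesenchymal regulator Prrx1 did not pass, and the list's median was -0.14. Without any 1 day 0 array 1 or 2 of the 4 rises were called.

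Few genes of the TGF-beta pathway passed, and the list's median was -0.07. Of 23 genes 4 fell (17.4%) and 1 rose (4.35%): the ligands Tgfb3 (-0.70 ± 0.17) and Tgfb2 (-0.68 ± 0.09), Eng and the receptor Tgfbr2 (-0.36 ± 0.09) fell, and Tgfbr3, betaglycan, rose (0.79 ± 0.12). In the BMP pathway 3 of 27 fell and 3 rose (11.1% each). The ligands Bmp4 (-0.87 ± 0.22), Gdf10 (-0.80 ± 0.17) and Gdf6 (-0.49 ± 0.12) fell, while the transducer Smad1 (0.35 ± 0.07) and the target genes Id1 (0.45 ± 0.12) and Id3 (0.45 ± 0.09) rose. Bmp4 gave 8.90, 9.0 and 8.98 in the WT arrays and 8.11, 8.05 and 8.09 in the KO arrays, without overlap. TGF-beta genes called lower numbered 2 and BMP genes at most 1 without any 1 day 0 array. BMP genes called higher numbered 1 or 2 under the same omissions.

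Some Wnt pathway genes fell. Of 42 genes 10 fell (23.8%) and 2 rose (4.76%). Lgr5, the R-spondin receptor that marks stem cells in several epithelia, gave 9.62, 9.53 and 9.58 in the WT arrays and 7.65, 7.31 and 7.63 in the KO arrays. Its KO arrays lay below all WT arrays, by -2.05 ± 0.31 (adjusted p = 0.00155), and a second probe set was at -1.30. The receptors Ror1 (-1.45 ± 0.21), Fzd4 (-0.85 ± 0.11) and Fzd5 (-0.83 ± 0.12) fell, as did the secreted antagonists Sfrp1 (-0.94 ± 0.17) and Sfrp2 (-1.22 ± 0.10), the latter with a second probe set at -0.08, and the negative regulator Nkd1 (-0.78 ± 0.10). The ligand Wnt10b (0.65 ± 0.09) and the antagonist Frzb (0.54 ± 0.13) rose. The falls numbered 7 or 8 without any 1 day 0 array.

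Of 31 hedgehog and FGF genes 4 rose and 4 fell (12.9% each). Ptch1, receptor and target of hedgehog signalling, rose (0.93 ± 0.11) while the antagonist Hhip fell (-0.75 ± 0.16). Fgf7, an epithelial growth factor of stroma, rose (0.98 ± 0.23), with the receptor Fgfr1 (0.28 ± 0.07) and the transcription factor Etv1 (0.70 ± 0.10, second probe set 0.12), and Fgf18 (-1.34 ± 0.29), Fgf9 (-0.84 ± 0.10) and the feedback inhibitor Spry1 (-1.31 ± 0.17) fell. Of 29 growth factor and IGF genes 5 rose and 5 fell (17.2% each). Angptl4, a lipase inhibitor, gave 6.28, 6.54 and 6.34 in the WT arrays and 8.59, 8.54 and 8.54 in the KO arrays and rose 4.51-fold (2.17 ± 0.37, adjusted p = 0.00371), without overlap. The EGF receptor ligand Ereg (0.94 ± 0.23, second probe set 0.12), the receptor Met (0.77 ± 0.09) and Igfbp3 (0.55 ± 0.13) rose with Pdgfra. Igfbp2, a binding protein of insulin-like growth factors, fell by 1.78 in log2 units (adjusted p = 0.000227), and Nrg1 (-0.77 ± 0.18), Igf2 (-0.51 ± 0.13), Hbegf (-0.41 ± 0.10) and Igfbp4 (-0.40 ± 0.10) fell by less. Without any 1 day 0 array, 2 hedgehog and FGF genes were called higher, 2 or 3 growth factor genes higher and 1 lower.

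Positional and lineage transcription factors changed in both directions. Of 67 mesenchymal and positional factors 8 rose (11.9%) and 7 fell (10.4%). The basic helix-loop-helix factor Twist2 (1.25 ± 0.13), the forkhead factor Foxf2 (1.24 ± 0.14), the limb and body wall factors En1 (0.93 ± 0.13) and Tbx3 (0.91 ± 0.08), Msx2 (0.59 ± 0.15) and Isl1 (0.55 ± 0.12) led the rises. Dlx5, which drives bone and jaw development, gave 6.30, 6.24 and 6.12 in the WT arrays and 4.51, 4.72 and 4.89 in the KO arrays and fell by 1.51 in log2 units (adjusted p = 2.72e-05), with no overlap. Foxp2 (-1.11 ± 0.15), Meox2 of the somite (-0.93 ± 0.12), the kidney and joint factor Six2 (-0.49 ± 0.12), Barx1 (-0.47 ± 0.12) and Alx4 (-0.40 ± 0.10) fell. Without any 1 day 0 array 3 or 4 factors were called lower and 5 or 6 higher, and without WT day 4 array 1, 13 were called lower. Of 36 HOX genes, which record position along the body, 6 rose and none fell, between 0.34 (Hoxa3) and 0.52 (Hoxd10), from the A, B and D clusters, and 3 or 4 of them were called without any 1 day 0 array.

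Imprinted genes, expressed from 1 parental copy, were lower in 6 of 26 cases (23.1%) and higher in 1. Mest gave 9.93, 9.82 and 9.98 in the WT arrays and 7.83, 7.91 and 7.91 in the KO arrays, and the KO arrays lay 4.08-fold below the WT arrays (-2.03 ± 0.32, adjusted p = 0.00193) without overlap. Dlk1, an inhibitor of adipocyte formation (-1.36 ± 0.25), Plagl1 (-1.07 ± 0.22, second probe set -0.16), the cell cycle inhibitor Cdkn1c (-0.57 ± 0.14), Zdbf2 (-0.52 ± 0.10) and the growth factor Igf2 (-0.51 ± 0.13) fell, and Dcn, the exception, rose. Of 25 bone, cartilage and tendon genes 5 rose (20%) and 3 fell (12%). Tnfsf11 (RANKL), which drives osteoclast formation, rose by 1.05 ± 0.27, and its decoy receptor Tnfrsf11b by 0.65 ± 0.14. Matn2 (0.72 ± 0.13), the tendon factor Mkx (0.47 ± 0.09) and the osteoblast factor Sp7 (0.43 ± 0.11) rose, whereas tenomodulin, Tnmd (-1.53 ± 0.30), aggrecan, Acan (-0.61 ± 0.10), and Col2a1 (-0.57 ± 0.12) fell. Of these 5 rises 1 to 3 were called without any 1 day 0 array.

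The largest fall among the genes named was that of Car3, a carbonic anhydrase abundant in adipocytes and muscle. It gave 8.10, 8.18 and 7.77 in the WT arrays and 4.42, 4.33 and 5.05 in the KO arrays, a 10.7-fold difference without overlap (-3.42 ± 0.23, adjusted p = 4.81e-06), and its second probe set was at -0.71. In the adipocyte list 4 of 20 genes fell (20%) and 2 rose (10%). The adipocyte regulator Pparg (-0.62 ± 0.10), Gpd1 (-0.34 ± 0.08, second probe set 0.03) and Dlk1 fell, and the inducing factor Cebpb (1.14 ± 0.30) and the lipid droplet protein Plin2 (0.45 ± 0.11) rose. At most 1 of these rises was called without any 1 day 0 array. In the ATF4 list of amino acid and stress genes 5 of 34 fell (14.7%) and 2 rose (5.88%). The glutathione-degrading Chac1 (-0.73 ± 0.13), the amino acid transporters Slc7a5 (-0.53 ± 0.10), Slc7a1 (-0.52 ± 0.09) and Slc1a5 (-0.47 ± 0.09) and the serine synthesis enzyme Phgdh (-0.44 ± 0.12) fell, and Cebpb and the secreted Stc2 (0.64 ± 0.13) rose, of which at most 1 was called without any 1 day 0 array. A second probe set of Slc1a5 was at -0.38 and did not pass.

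Guidance and adhesion genes were lower in 12 of 53 cases (22.6%) and higher in 4 (7.55%). The ephrin receptors Epha3 (-1.05 ± 0.18) and Epha4 (-0.82 ± 0.11), the semaphorins Sema3d (-0.98 ± 0.21), Sema7a (-0.77 ± 0.14) and Sema5a (-0.71 ± 0.18) and the cadherin Cdh6 (-0.89 ± 0.21) led the falls, and Cdh10 (0.92 ± 0.11), Pcdh9 (0.44 ± 0.11), Epha7 (0.42 ± 0.11) and Sema3c (0.37 ± 0.08) rose. Without any 1 day 0 array 7 to 9 genes of this list were called lower and 1 to 3 higher, and without WT day 4 array 1, 7 were called higher. Other large falls belonged to no list. Fhl5, a cofactor of CREM, gave 6.26, 6.54 and 6.41 in the WT arrays and 3.50, 3.85 and 3.26 in the KO arrays, the KO arrays lying 7.29-fold lower without overlap (-2.87 ± 0.16, adjusted p = 2.08e-06). The gap junction gene Gjb2 (connexin 26) fell by 2.56, the cytokine receptor Il31ra by 1.99 and the alcohol dehydrogenase Adh1 by 1.92 on the log2 scale, and a second probe set of Adh1 was at -0.03.

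Hypoxia-induced and glycolytic genes showed separation between the day 0 groups that seldom passed the threshold. Of 19 HIF and hypoxia-induced genes 1 rose (5.26%), Car12, a carbonic anhydrase of the cell surface (1.20 ± 0.29, adjusted p = 0.0312), with a list median of 0.36. This call was lost without any 1 of the 6 day 0 arrays. The KO arrays lay above all WT arrays in 14 of the 19, against 13.1% of all genes. Bnip3, a mitophagy receptor induced by hypoxia, gave 6.75, 6.85 and 6.93 in the WT arrays and 8.03, 8.10 and 7.98 in the KO arrays, a difference of 1.19 ± 0.50 without overlap (adjusted p = 0.239). Egln3, an oxygen-sensing prolyl hydroxylase, gave 6.37, 7.18 and 6.04 in the WT arrays and 8.60, 8.43 and 8.57 in the KO arrays (2.0 ± 0.69, adjusted p = 0.136). Without WT day 4 array 1, which adds its spread to the estimate for the day 0 groups, 12 of the 19 passed, Bnip3 at an adjusted p of 8.41e-07 and Egln3 at 0.000242, and the fit to the 6 day 0 arrays also called 12. Both genes were singled out after their values had been seen. Of 19 genes of glycolysis and lactate transport 1 rose, the monocarboxylate transporter Slc16a1, and 1 fell, Pfkfb4 (-0.33 ± 0.08). Slc16a1 gave 8.25, 8.26 and 8.32 in the WT arrays and 9.60, 9.57 and 9.66 in the KO arrays and a difference of 1.33 ± 0.14 (adjusted p = 9.82e-05). The KO arrays lay above in 15 of the 19 (13.1% of all genes), and 8 rises passed without WT day 4 array 1 and 10 in the 6-array fit. Of 33 NRF2 and glutathione genes 2 rose, the mitochondrial superoxide dismutase Sod2 (1.55 ± 0.36) and the factor Nfe2l2 itself (0.44 ± 0.10), and 1 fell, the glutathione transferase Gsta4, which gave 9.18, 9.08 and 9.43 in the WT arrays and 7.53, 7.68 and 7.61 in the KO arrays (-1.62 ± 0.11, adjusted p = 4.81e-06). The rises numbered at most 1 without any 1 day 0 array, 7 without WT day 4 array 1 and 8 in the 6-array fit.

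Few members passed in the lists on mitochondria, the organelle on which GDAP1 acts, and on calcium entry. Across these 7 lists with 204 genes, from fission and fusion through the respiratory chain, the mitochondrial ribosome and the citric acid cycle, 1 rose and 1 fell (0.98%, against 5.6% of all genes). Cmpk2, Sod2 and Nnt, whose products also lie in mitochondria, belong to other lists and changed by more. The ribosomal protein gene Mrps22 rose by 0.34 ± 0.08 (adjusted p = 0.0179), and Ndufa2, a subunit of complex I, fell by 0.35 in log2 units (adjusted p = 0.027). Differences ranged from -0.36 to 0.34 with a median of -0.06, and the median standard error over all genes was 0.10. The KO arrays lay all below the WT arrays in 10 of 33 complex I genes and 9 of 34 of complexes II to V. The other counts were 7 of 45 (ribosome), 8 of 22 (biogenesis), 7 of 27 (dynamics), 5 of 23 (calcium entry) and 1 of 20 (citric acid cycle), against 16.4% of all genes. In the same order they lay all above in 3, 4, 2, 1, 2, 3 and 2, against 13.1%. Both calls were lost without KO day 0 array 1 and without some of the other single arrays. The fission regulator Mtfr2 (-0.36 ± 0.13), the protease Oma1 (0.30 ± 0.09), which processes a fusion protein, and the calcium uniporter Mcu (-0.27 ± 0.10) did not pass. Mitochondrial lists are among 31 that stayed under the limit for a description of their own. These 31 hold 873 members, of which 21 rose and 35 fell, against 2.48% and 3.12% of all genes, and 5 of the 31 had no member past the threshold. Within the 31, smooth muscle and contractile genes had 4 falls among 25 members, Myh11 (-0.95 ± 0.18), Myocd (-0.80 ± 0.10), Tpm2 (-0.50 ± 0.12) and Srf (-0.40 ± 0.08). The KO arrays lay below in 20 of the 25, against 16.4% of all genes. These falls numbered 2 or 3 without any 1 day 0 array, 7 without WT day 4 array 1 and 13 in the fit to the 6 day 0 arrays. Epithelial and keratinocyte markers had 4 falls among 29, with Krt8 (-0.70 ± 0.12) and Krt18 (-0.62 ± 0.10), which pair in simple epithelia. A second probe set of Krt18 was at -0.46 and did not pass. Skeletal and cardiac muscle markers had 1 fall among 28, and neural and Schwann markers 1 rise and 1 fall among 22. G2/M and mitosis genes had 3 falls among 61 and a median of -0.22, with the KO arrays below in 44 and above in 0. DNA replication and G1/S genes had 1 fall among 53 and a median of -0.15, with the KO arrays below in 25 and above in 0. Over all genes the KO arrays lay below in 16.4% and above in 13.1%. The falls of both lists, in that order, numbered 1 to 3 and 0 or 1 without single day 0 arrays, and 15 and 5 in the fit to the 6 day 0 arrays.

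Genes that can differ between embryos or mouse stocks apart from Gdap1 were examined too. Of 7 X- and Y-linked markers Xist rose by 0.42 ± 0.09 (adjusted p = 0.0158) and Uty fell by 0.34 in log2 units (adjusted p = 0.0435). The call of Uty was lost without any 1 day 0 array and that of Xist without WT day 0 array 1 or 3 or any 1 KO day 0 array. On the day 4 arrays Xist was higher again (0.46) and Uty lower again (-0.38), and both passed there. Of 7 genes known to vary between inbred strains 3 fell: Alad (-1.04 ± 0.07), an enzyme of haem synthesis, Wdfy1 (-0.86 ± 0.12) and Nnt (-0.78 ± 0.07), a mitochondrial transhydrogenase. Nnt gave 8.66, 8.67 and 8.74 in the WT arrays and 7.88, 7.92 and 7.95 in the KO arrays, without overlap. All 3 were lower at day 4 as well, by -1.33, -0.98 and -1.27. The part of strain or embryo in the comparison was not tested. Among the 20 genes next to Gdap1 on chromosome 1, 10 on each side in RefSeq order, 3 rose (15%, against 2.48% of all genes) and none fell: Pi15 (0.75 ± 0.19), Rdh10 (0.39 ± 0.08) and Stau2 (0.35 ± 0.07). The call of Pi15 was lost without any 1 of the 6 day 0 arrays. That of Rdh10 was lost without WT day 0 array 2 or KO day 0 array 2 or 3, and that of Stau2 without WT day 0 array 3 or KO day 0 array 2. By chromosome the share of genes called ran from 3.53% on chromosome 17 to 7.9% on chromosome 4, and it was 7.37% on chromosome 1.

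The genotype comparison at day 4 uses 6 other arrays and a shared estimate of spread. There 1850 genes were higher (8.34%) and 2746 lower (12.4%) in KO cells. Of the 549 genes that rose at day 0, 477 had the same sign at day 4 (86.9%), 259 rose again (47.2%) and 10 fell, and their median went from 0.63 to 0.37. Of the 693 that fell, 529 kept the sign (76.3%), 287 fell again (41.4%) and 36 rose, and their median went from -0.61 to -0.28. Both sets were chosen by their day 0 values, so the smaller medians at day 4 are not independent of that choice. The same holds for list members called at day 0. Across all genes the 2 differences had a Pearson correlation of 0.495 and a Spearman correlation of 0.369, as a description only, since genes are not independent replicates. Without WT day 4 array 1 the genes that passed in both comparisons numbered 577 higher and 543 lower.

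Macrophage markers were lower on both days. All 19 that fell at day 0 were lower at day 4 and 18 of them passed again, with a median of -1.20 over the list. C1qb was at -3.23 ± 0.18 (adjusted p = 8.97e-07). The 31 interferon genes, chosen by their rises at day 0, kept their sign in all cases. All 31 differences were smaller at day 4, a count not independent of that choice. Of these, 14 passed again, the difference between the days passed for 7 (3.95% of all genes passed it; over the 42 list genes it passed for 8, and for 21 without WT day 4 array 1), and the list's median fell from 2.24 to 0.82. Ifit1 was at 1.22 ± 0.49 at day 4 (adjusted p = 0.0968) and Cmpk2 at 0.09 ± 0.39 (adjusted p = 0.899). On the mean of this list the KO day 4 arrays stood between 0.48 and 1.17, and the WT day 4 arrays stood at 0.87, -0.37 and -0.82, all above the WT day 0 arrays and array 1 far above the other two. Without that array the interferon median at day 4 was 1.37 and 36 of the 42 genes were higher. In the chemokine list the difference between the days passed for 0 of the 13 genes that rose at day 0. Its WT day 4 arrays stood at 0.89, -0.67 and -0.90, with array 1 again apart. Its median went from 0.77 to 0.57 with all 12 arrays, and 7 genes passed higher at day 4. Without WT day 4 array 1 the chemokine median was larger at day 4 than at day 0 (1.27), unlike that of the interferon list, and 28 genes passed higher. On the macrophage list the same array was the highest of the 12 (0.97), with a summed level of 4166.3, and its part in these values was not tested beyond its omission.

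**Figure D4:**
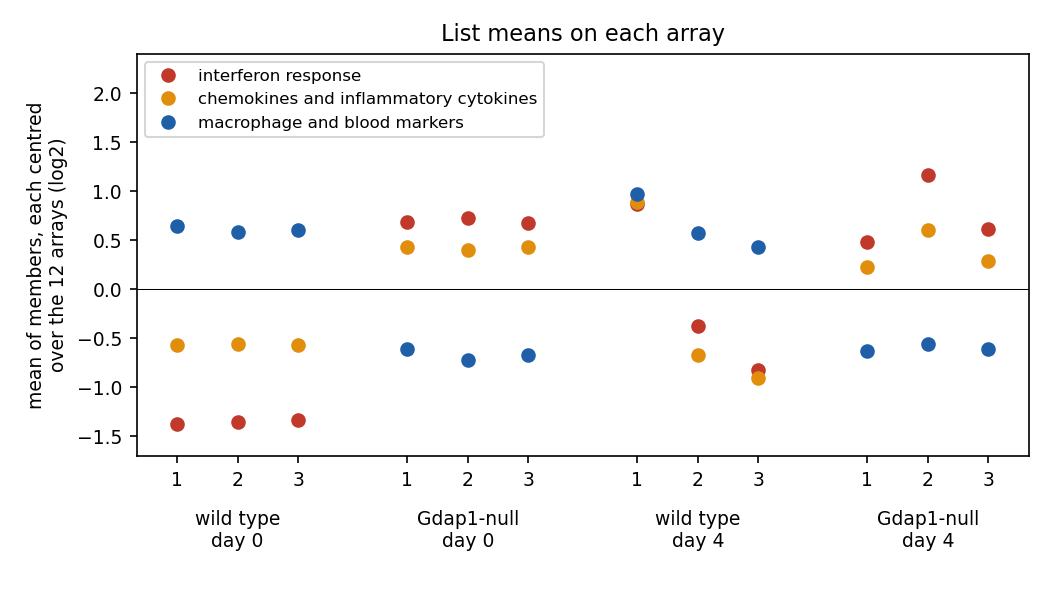
Mean over list members, each centred over the 12 arrays (log2, vertical axis), on each array of the 4 groups, numbered by replicate. The interferon points lie between -1.37 and -1.33 in WT and between 0.68 and 0.73 in KO cells at day 0, and WT day 4 array 1 (0.87) lies apart from the other WT day 4 arrays.

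Matrix genes that fell at day 0 were often not lower at day 4. Of the 7 falls among matrix glycoproteins and integrins 3 kept their sign, and of the 8 among elastic fibre and proteoglycan genes 4 did. Eln was lower again (-1.90 ± 0.33, adjusted p = 0.00166), whereas Prelp was at 0.32 ± 0.12. Of the 9 collagen falls 7 kept the sign and 2 passed. Of the 6 imprinted genes that fell 5 fell again at day 4, and of the 7 mesenchymal factors that fell 6 did. These lists were not tested against each other.

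**Figure D5:**
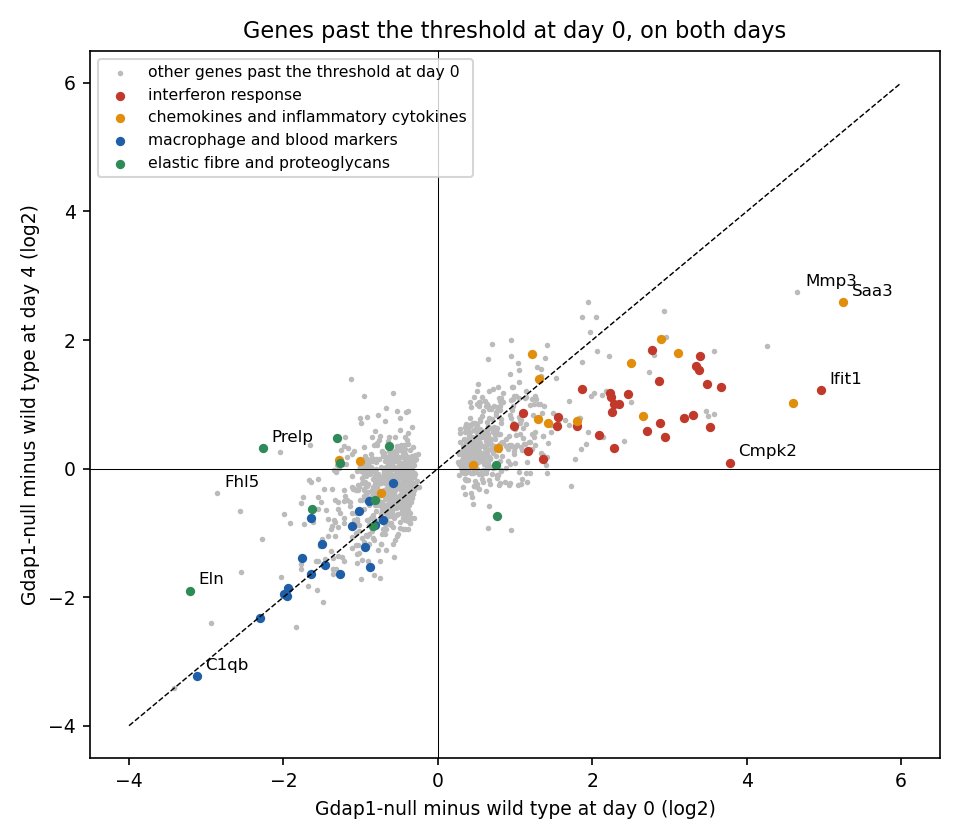
KO minus WT difference (log2) at day 0 (horizontal axis) and at day 4 (vertical axis) of the 1242 genes past the threshold at day 0, with 4 lists in colour and equal differences along the dashed line. Macrophage markers lie near the line, such as C1qb, and the interferon genes lie to the right of zero and below the line, such as Ifit1 and Cmpk2.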

How the data were processed

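Total RNA of fibroblasts of 2 genotypes and 2 days was measured on 12 1-colour arrays, 3 per group, of which 6 are the day 0 arrays. The authors deposited log2 levels of probe sets, between 1.33 and 13.35. Per the submitters' processing notes these come from Affymetrix Expression Console. Background correction, normalization and genome build: not given in the sources used here. Of 41345 probe sets 23521 carried 1 gene symbol, 1814 several and 16010 none. The probe set with the highest mean over the 12 arrays stood for its gene, which mattered for 1082 genes, and 99.82% of the 22180 symbols were in RefSeq. The deposited table held 0 columns of other samples. No low-level filter was used.

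limma 3.58.1 in R 4.3.3 fitted 4 group means to all 12 arrays (8 residual and 4.56 prior degrees of freedom). The contrasts were KO minus WT at day 0, the same at day 4, and their difference, with Benjamini-Hochberg adjustment over all genes and a threshold of 0.05. Exact permutation of 3 against 3 arrays cannot go below p = 0.1 and was not used. The fit was tested on simulated data. Members of 52 lists (1672 names, 1535 measured) were counted. The members and lists were chosen with earlier results of these data known, and 4 further lists after these results.

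Genes named are Gdap1, the 20 largest rises and 20 largest falls past the threshold with non-overlapping arrays (predicted genes, clones, small RNAs, pseudogene names, olfactory and antigen receptors left out), up to 6 members in each direction of each described list (all where 5 or fewer passed, the 2 largest where none did), and the sex and strain markers. A few others are named beside a count. Described lists have at least 4 members and at least 20% past the threshold. Replicate numbers showed no pairing at day 0 (same-number correlations of deviations from -0.06 to -0.004), which cannot show that the samples were unpaired. At day 4 the same-number correlations were -0.013, 0.182 and 0.116, and those of unlike numbers ranged from -0.204 to 0.116. Alternatives were a low-level filter, quantile normalization, median centring, averaged probe sets, all probe sets, a trended robust prior, array weights, the 6 day 0 arrays alone, a replicate block, a 2-fold minimum and the omission of single arrays; omissions of day 4 arrays were added after the data were seen.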

Additional observations from a re-analysis of the deposited data

Results flagged for a closer look

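The genotype difference itself differed between day 0 and day 4 for 55 of 241 named genes, by limma's test of the difference of differences (adjusted p under 0.05, 3.95% of all genes pass it). The values here are the day 4 minus the day 0 difference on the log2 scale, 18 of the 55 genes were higher at day 0 and 37 lower, and 49 had the smaller difference at day 4. The genes were named for their day 0 difference, so that count is not independent of the choice. In 27 the sign was opposite at day 4, and 9 of these passed on both days in opposite directions: Lum, Nt5e, Fmod, Itga6, Adamts5, Tpm2, Crim1, Hbegf and Perp. All 55 also passed without WT day 4 array 1, and none changed sign.

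Among genes higher in KO cells at day 0 the interferon genes Ifit1 (-3.74), Cmpk2 (-3.69), Oasl1 (-2.45) and Irgm2 (-2.41) came closer together at day 4, as did Mmp10 (-1.76), the lactate transporter Slc16a1 (-1.09), the integrin Itga4 (-1.05), the proteoglycan Dcn (-0.70), the ligand Wnt10b (-0.57), the hedgehog receptor Ptch1 (-1.15), the patterning factors Twist2 (-0.75), En1 (-0.86) and Tbx3 (-0.61), the immediate early factor Nr4a2 (-1.24) and the carbonyl reductase Dcxr (-0.87). Lum (-1.50) and Nt5e (-1.58) turned from higher to lower and passed on both days. Of the genes just named, Itga4, Ptch1, Nr4a2 and Dcxr also had the opposite sign at day 4, without passing there. Only Tnfrsf11b (1.06) of the 18 moved further up.

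Among genes lower in KO cells at day 0 the largest shifts were those of Prelp (2.58), Fhl5 (2.49), Lgr5 (2.31), Gjb2 (1.91), Fmod (1.78) and Perp (1.70). Matrix genes and their receptors and proteases followed with Podn (1.01), Itga1 (1.48), Itga6 (1.34), Timp3 (0.87), Adamts5 (1.19) and Acan (0.79), and contractile genes and targets of YAP with Myh11 (1.29), Myocd (0.80), Tpm2 (1.29), Nuak2 (1.29) and Crim1 (0.77). Signalling genes were Sfrp1 (1.02), Sfrp2 (0.88), Fzd5 (0.81), Spry1 (1.26), Fgf9 (0.95), Hbegf (1.29), Igfbp2 (1.24) and Il31ra (1.28), and transcription factors Dlx5 (0.99) and Meox2 (0.67). Endothelial markers were Eng (0.73), Ptprb (1.25) and Emcn (1.36), and immune genes Fcrls (1.17), Ccl17 (1.41), Cx3cl1 (1.14) and Cd59a (0.90). Gsta4 (0.79) also came closer to the WT level. Cdc20 (-0.56), a mitotic activator, and Nnt (-0.49) moved further down.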

How the results depend on the processing

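Of 221 named genes past the threshold at day 0, 126 stayed past it under all 21 settings and 0 changed sign under any, and of the 40 with the largest changes 36 stayed past it throughout. The 1242 calls became 2562 with array weights (1172 higher, 1390 lower), 2453 in the fit to the 6 day 0 arrays (1144, 1309), 273 at 2-fold or more (145, 128) and 2165 with both WT day 4 array 1 and KO day 4 array 2 left out (1008, 1157), a setting added once the values were known. Leaving out single arrays gave 769 to 1936 calls (higher 313 to 897, lower 444 to 1039). The share of calls that were higher was 44.2% and between 40.7% and 50.3% elsewhere, 50.3% with centred medians. At day 4 single omissions left 2946 to 5929 of 4596 calls. For the difference between days, 877 calls became 1852 with array weights, 2521 without both arrays and 395 to 2140 without 1. Genes past the threshold on both days went from 259 higher and 287 lower to 544 and 631 with array weights, 588 and 607 without both arrays, and 148 to 577 and 182 to 543 without 1. The 13 chemokine rises were 6 with a trended robust prior, 23 with array weights, 27 with the 6 day 0 arrays, 27 without both arrays and 5 to 26 without 1. The 9 collagen falls were 14 with the 6 day 0 arrays and 5 to 12 without 1. Counts for the interferon, macrophage, elastic fibre and Wnt lists stayed within 1.5 times. The cause of these shifts was not tested. With the replicate number as a block 1132 genes passed (473 higher, 659 lower), and the numbers share no known pairing. Array number and signal near the floor limit what can be seen: 41 of the called genes lay under the 25th percentile.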
